A study of Mus musculus with 8 samples.

Results

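The comparison set hippocampus after mild exercise on a placebo diet (ME, 2 arrays) against hippocampus after an astaxanthin diet without exercise (AX, 2 arrays), which took 4 of the 8 arrays of the series. Per the labels and the series text, the animals were wild-type male C57BL/6J mice, bought at 11 weeks of age, with 8 mice in each of 4 groups. ME mice exercised mildly and ate powdered chow with placebo powder. AX mice stayed sedentary and ate the same chow with 0.5% of a powder that held 2% astaxanthin. A group that received exercise and astaxanthin together (AX+ME, 2 arrays) entered the estimate of the spread, and its values stand beside those of ME and AX. The sedentary placebo arrays were not used. Exercise and diet both differ between ME and AX, so a difference cannot be assigned to either of them, and neither group is an untreated control. In each group 1 sample was labelled with the dye Cy3 and 1 with Cy5, each alone on its array, and ME was set against AX within each dye.

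The hippocampus is a brain region for spatial memory in which new neurons arise in the dentate gyrus throughout adult life. Running raises the activity of hippocampal neurons and is known to increase adult neurogenesis. Astaxanthin is a red carotenoid with antioxidant activity that is made by a green alga. Fluid-producing choroid plexus, the meninges and large vessels lie against the hippocampus, whereas the hypothalamus and pituitary lie farther off. A piece of dissected tissue can hold RNA from other tissue, which was not tested here. Markers of all these tissues were followed beside the genes of neurons and glia.

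Levels are given as a percentage of the array's 75th percentile signal, and differences as log2 of the ME level over the AX level. Positive differences mean a higher level in ME. A gene or unnamed transcript was tested when its probe was well above background on both ME arrays or on both AX arrays, which left 25942 of them, 15620 with a gene symbol. The share of spots well above background was 72.7% and 64.0% on the ME arrays in Cy3 and Cy5, against 76.2% and 63.2% on the AX arrays, and the correlations between the arrays lay between 0.991 and 0.998 across genes. Markers of hippocampal neurons were well above background on all 4 arrays for 10 of 10 dentate granule cell genes and 11 of 12 pyramidal cell genes. The labels do not give the step from 8 mice to 2 samples per group, so p-values measure only the spread between these samples, which may come from the technique alone. Position on the slide cannot be told apart from group, because each group filled 1 column of arrays. Over 48 blocks of array area the median difference lay between -0.03 and 0.05 in Cy3 and between -0.01 and 0.05 in Cy5.

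The promoters of 3 of the genes with lower levels in ME are shown first, because genes of both families had lower levels in ME in the values below. Each is the 250 bases before the gene's start in RefSeq (build GRCm38.p6), read 5′ to 3′ on the gene's strand. Prl encodes the pituitary hormone prolactin, and its promoter is bound by the pituitary factor Pou1f1. Capitals mark the 2 matches to TATNCAT, a short form of the Pou1f1 element, searched on both strands. H2-Eb1 and H2-Aa encode chains of the major histocompatibility complex (MHC) class II, whose promoters carry an X box and a Y box read through the coactivator Ciita. Capitals mark matches to GCAAC, the core of the X box, and to ATTGG, the core of the Y box, on both strands, with no overlap between them.
Prl, chr13:27057320-27057569, + strand: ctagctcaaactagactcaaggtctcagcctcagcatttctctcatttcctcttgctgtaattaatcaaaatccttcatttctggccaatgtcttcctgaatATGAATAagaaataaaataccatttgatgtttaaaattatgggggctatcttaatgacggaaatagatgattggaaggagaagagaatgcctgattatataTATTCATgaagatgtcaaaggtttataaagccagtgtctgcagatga
H2-Eb1, chr17:34305617-34305866, + strand: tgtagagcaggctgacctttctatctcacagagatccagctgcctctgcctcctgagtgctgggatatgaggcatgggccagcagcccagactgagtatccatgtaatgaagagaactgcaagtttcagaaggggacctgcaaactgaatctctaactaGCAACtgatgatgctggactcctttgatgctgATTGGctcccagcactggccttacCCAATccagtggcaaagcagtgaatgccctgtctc
H2-Aa, chr17:34287824-34288073, - strand: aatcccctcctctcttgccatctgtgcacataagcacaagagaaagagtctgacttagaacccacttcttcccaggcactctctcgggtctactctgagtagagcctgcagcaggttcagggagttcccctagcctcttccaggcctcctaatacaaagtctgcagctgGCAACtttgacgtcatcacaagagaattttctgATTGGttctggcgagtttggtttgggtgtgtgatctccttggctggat
The H2-Eb1 window held 1 X box match and 2 Y box matches, and the H2-Aa window held 1 of each. From the start of GCAAC to the start of the first ATTGG behind it lay 32 bases in H2-Eb1 and 33 bases in H2-Aa. Among 32851 promoter windows of this length, 7.92% held TATNCAT, 29.9% held GCAAC, 33.8% held ATTGG and 10.6% held the last 2 together. A match describes the sequence and is not evidence of binding. Of 5 genes looked up (Prl, Gh, H2-Aa, H2-Ab1 and H2-Eb1), 3 were in the promoter table.

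No gene passed limma's test for ME against AX at an adjusted p of 0.05 (0 of 25942; 0% called in either direction). The smallest adjusted p was 0.341, and 3253 genes had an unadjusted p under 0.05, 1396 of them higher in ME (5.38%) and 1857 lower (7.16%). With 2 arrays against 2, an exact permutation test of a single gene that ignores dye cannot go below a two-sided p of 0.333. One that exchanges arrays only within a dye has fewer arrangements and a higher limit. The values that follow are therefore a description of 4 arrays, and each gene named below missed the threshold.

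In both dyes at once, 18 genes were at least 1.5-fold higher in ME (0.0694% of genes tested) and 78 at least 1.5-fold lower (0.301%), while 27 passed that fold in opposite ways. Of the 96 genes in the first 2 counts, 18.8% were higher in ME. That share was 37.8% after quantile normalization (31 higher, 51 lower) and 31.3% after scaling by the array median (26 higher, 57 lower). Only 4 of the 18 and 21 of the 78 were well above background on all 4 arrays. The others entered the test through ME alone or AX alone, which can set their direction. At any size, 39.7% of genes were higher in ME in both dyes and 27.4% were lower, and the median difference over all genes was 0.02 in each dye. Differences were spread more widely in Cy5 (SD 0.402 over genes) than in Cy3 (SD 0.195), and their correlation between dyes was 0.240 across genes, which are not independent replicates. Of the 96 genes, 40 had their probe in array columns below 70 (41.7%), where 43.0% of the tested genes lie.

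**Figure D1:**
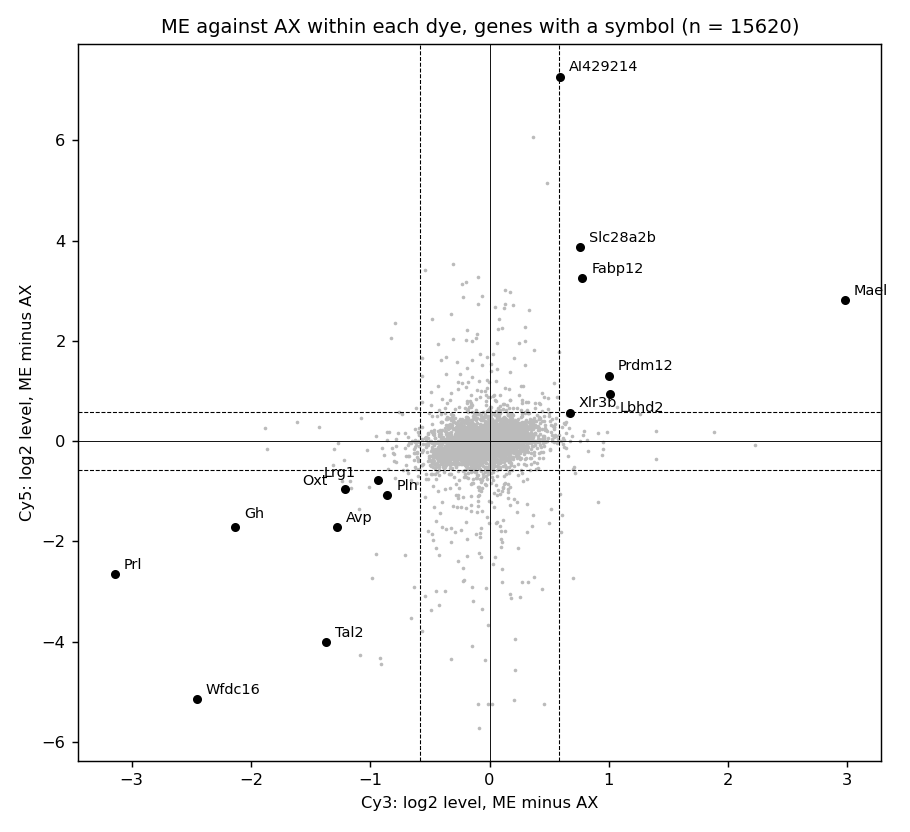
Difference in log2 level between ME and AX in Cy3 (horizontal) and in Cy5 (vertical), 1 point per gene with a symbol (15620), dashed lines at 1.5-fold. Prl, Gh, Avp and Oxt lie far into the lower left corner and Mael, Prdm12 and Lbhd2 into the upper right, while many genes are spread along the Cy5 axis alone.

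A gene symbol was known for 7 genes with higher and 27 genes with lower levels in ME. Of these 34, 15 differed by at least 2 on the log2 scale in Cy5, and 3 did so in both dyes (Mael, Prl and Wfdc16). Wfdc16 shows the unevenness between dyes, with levels of 0.903% and 0.512% on the ME arrays, against 4.95% and 18.2% on the AX arrays (Cy3 and Cy5 in this order, as in all pairs below). Among the kept probes, 77 were at least 4-fold higher on the ME Cy5 array than on each of the other 3 arrays, and 150 were so on the AX Cy5 array, against 3 on the ME Cy3 array and 4 on the AX Cy3 array. Tal2, Fabp12 and Slc28a2b, which ranked high by their size, also differed mostly in Cy5 and were at or near background in the other group. Their values are given with this limit only: the differences were -1.37 in Cy3 and -4.01 in Cy5 for Tal2 (its ME value in Cy5 was below 0.5% and set to it), 0.78 and 3.25 for Fabp12, and 0.76 and 3.86 for Slc28a2b.

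Hormone genes of the pituitary were lower in ME. The pituitary list held 9 genes, of which 5 were tested. In both dyes 4 of the 5 were lower (27.4% of all genes tested) and 0 higher. The median difference was -0.52, the value of Pomc, beside 0.02 over all genes. Over 11 other settings the list's median ranged widely, from -1.92 to -0.13. Prl and Gh entered the test through the AX arrays alone, which can set their direction, and well above background on all 4 arrays were 3 of the 5. Summed over the list, the level was 0.903 and 0.919 times the 75th percentile on the ME arrays, against 1.37 and 1.33 times on the AX arrays. Tshb, Cga, Fshb and Pou1f1, of which Pou1f1 encodes the factor that defines the cells making prolactin and growth hormone, were not above background in the way the test required. In bulk tissue fewer cells of a type and less RNA per cell cannot be told apart, and the share of pituitary RNA in each dissection was not tested.

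Prl stood at 1.06% and 1.73% on the ME arrays, not well above background on either, against 9.36% and 10.9% on the AX arrays. The AX+ME arrays gave 9.16% and 8.94%, next to AX, so that both ME arrays were the low ones among the 6. The drop is an approximate bound, since the gene was not well above background in ME. By that bound Prl was at least 5.79-fold lower in ME (log2 difference of the measured values -2.90, SE 0.200, limma adjusted p = 0.341). Gh, which encodes growth hormone, was likewise lowest on the ME arrays, with 1.65% and 1.90% on the ME arrays, only 1 of them well above background, against 7.25% and 6.18% on the AX arrays. The log2 difference of Gh was -1.92 (SE 0.122), and the AX+ME arrays gave 8.88% and 8.15%, above AX. Pomc, the precursor of corticotropin and the melanocortins, is made in the pituitary and in hypothalamic neurons. Its levels were 65.9% and 66.0% on the ME arrays, against 97.5% and 91.8% on the AX arrays, a difference of -0.52 (SE 0.0460), and the groups did not overlap. Lhb, the beta chain of luteinizing hormone, differed by -0.09 (SE 0.0541). With normexp background correction, whose offset narrows differences of dim genes, the difference was -1.35 for Prl and -0.88 for Gh, and in the groups described below -0.92 for Avp, 0.95 for Mael, -0.37 for H2-Aa, -0.22 for Ciita, -0.22 for Cfb, -0.57 for S100a9, -0.37 for Six2 and 0.33 for Syce3.

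Hypothalamic peptide genes went different ways. Of 14 genes listed, 13 were tested, with a median of 0.04. In both dyes 6 were higher in ME (39.7% of all genes tested) and 2 lower (27.4%). The 2 lower ones were the hormones that hypothalamic neurons send to the posterior pituitary. Oxt, which encodes oxytocin, stood at 10.2% and 12.2% on the ME arrays, against 23.5% and 23.5% on the AX arrays (difference -1.08, SE 0.0814). Avp, which encodes vasopressin, stood at 4.03% and 2.82% on the ME arrays, 1 of them well above background, against 9.76% and 9.28% on the AX arrays (difference -1.50, SE 0.362), through which alone it was tested. On the AX+ME arrays Oxt was intermediate at 16.99% and 17.8%, and Avp was uneven at 6.06% and 10.9%. Trh, the precursor of thyrotropin-releasing hormone, and Cartpt, the precursor of the appetite-suppressing CART peptides, were higher in ME. Trh had 11.3% and 10.3% on the ME arrays, against 9.72% and 7.90% on the AX arrays, and Cartpt had 86.0% and 93.1% against 73.0% and 74.9%. Their differences were 0.30 (SE 0.0807) and 0.27 (SE 0.0466). Crh, the stress hormone that drives corticotropin release, differed by 0.20 in Cy3 and 0.11 in Cy5.

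**Figure D2:**
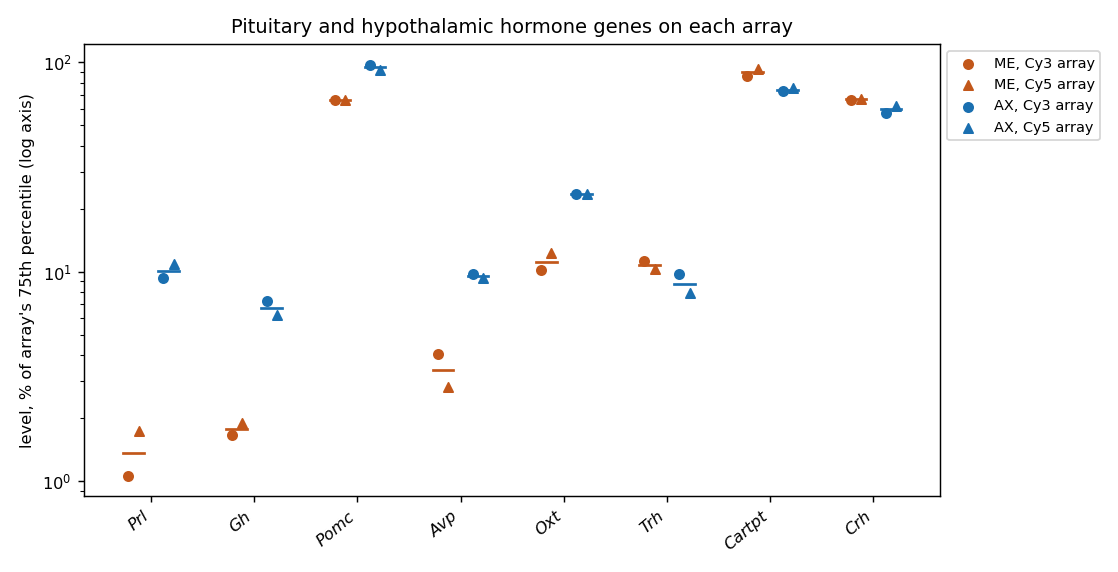
Levels of hormone genes on each array as a percentage of the array's 75th percentile, on a log axis, with ME left of AX for each gene, circles for Cy3, triangles for Cy5 and bars at the geometric mean. Prl on the ME arrays, at 1.06% and 1.73%, and Gh, at 1.65% and 1.90%, lie near or below background, and Trh and Cartpt run the other way from Oxt and Avp.

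The choroid plexus secretes cerebrospinal fluid into the ventricles, and with few exceptions its genes were lower in ME. All 16 listed genes were tested and well above background on all 4 arrays. In both dyes 14 were lower in ME, where 27.4% of all genes tested were lower, and 2 were higher. The list's median was -0.32. In limma's test 14 were lower with an unadjusted p under 0.05 (7.16% of all genes tested), and 0 passed after adjustment. The 2 others, Ttr and Enpp2, were saturated on all 4 arrays, so that no ratio is given for them. That median lay between -0.36 and -0.26 over 11 other settings.

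Slc4a5, a sodium bicarbonate transporter, had the largest difference of the list. It stood at 53.3% and 56.4% on the ME arrays, against 78.7% and 78.0% on the AX arrays (difference -0.52, SE 0.0482). Aqp1, the water channel of the plexus, stood at 169.9% and 197% on the ME arrays, against 239.6% and 256% on the AX arrays (-0.44, SE 0.0623). Each ME array was below its AX partner by a similar amount. The potassium channel genes Kcnj13 and Kcne2 differed by -0.33 and -0.28, and Cldn2, which forms pores in tight junctions, by -0.35. F5, which encodes coagulation factor V, had 69.5% and 65.8% on the ME arrays, against 98.0% and 91.5% on the AX arrays (-0.49, SE 0.0402), and its second probe also gave lower levels in ME. Sostdc1, a secreted antagonist of BMP and Wnt signals, differed by -0.40 (SE 0.0422). Kl, which encodes klotho, the folate receptor gene Folr1, the metalloreductase gene Steap1 and Otx2, the transcription factor that maintains plexus identity, differed by -0.33, -0.30, -0.38 and -0.28.

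Prlr, the receptor for prolactin, is abundant in the choroid plexus and stood at 211% and 227% on the ME arrays, against 249% and 288% on the AX arrays (-0.29, SE 0.0505). On the AX+ME arrays the plexus genes were near the ME level: Slc4a5 stood at 54.8% and 54.6%, F5 at 68.9% and 65.8% and Aqp1 at 173% and 177%. Here the AX arrays were the high ones among the 6, unlike for Prl and Gh, where the ME arrays were the low ones.

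Lower levels in ME were also found for markers of the brain's coverings and vessel walls. Of 12 meningeal fibroblast genes, 8 were lower in both dyes and 1 higher, with a median of -0.21. Of 9 genes of pericytes and smooth muscle, the contractile cells around vessels, 8 were lower and 1 higher, with a median of -0.20. Of 10 genes of ependymal cilia, 8 were lower and 0 higher, with a median of -0.13. Against these shares, 27.4% of all genes tested were lower in both dyes. Summed, meningeal genes had 73.9 and 62.6 times the 75th percentile on the ME arrays, against 72.9 and 65.2 times on the AX arrays. The sum, which the brightest genes set, was thus not lower in Cy3. Of the 12 meningeal genes, 1 was saturated on 1 or more of the 4 arrays, which limits this sum.

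Slc6a13, a GABA and taurine transporter of the meninges, had 142% and 137% on the ME arrays, against 181% and 175% on the AX arrays (-0.35, SE 0.0475). Aldh1a2, which makes retinoic acid in the meninges, differed by -0.35 (SE 0.0624), and the collagen chain genes Col3a1 and Col1a1 by -0.26 (SE 0.0419) and -0.29 (SE 0.0748). Prg4, which encodes the lubricant lubricin, differed by -0.30 in Cy3 and -0.72 in Cy5. Dcn, the bright proteoglycan gene decorin, ran the other way at 0.15 and 0.05. All 3 of Slc6a13, Aldh1a2 and Col3a1 were higher on the AX+ME arrays than on any ME or AX array, at 199.6% and 205%, 108% and 109% and 21.7% and 22.3%.

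Among genes of contractile cells, Acta2, smooth muscle actin, had 418% and 402% on the ME arrays, against 517% and 483% on the AX arrays (-0.29, SE 0.0410). Cnn1, the actin-binding calponin, and Myh11, smooth muscle myosin, differed by -0.38 (SE 0.0487) and -0.38 (SE 0.118). Pln, phospholamban, which restrains the calcium pump of muscle, had 5.68% and 7.03% on the ME arrays, against 10.3% and 14.9% on the AX arrays. Its difference of -0.97 (SE 0.147) was past 1.5-fold in both dyes. The pericyte gene Rgs5 was the one member higher in both dyes (0.08 and 0.01). Foxj1, the master factor of motile cilia, differed by -0.32 (SE 0.0741).

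In the endothelium list 7 of 12 were lower in both dyes (27.4% of all genes tested) and 2 higher. Its median of -0.04 stood closer to the median of all genes. Vwf, the clotting factor of larger vessels and a gene outside that list, had 237% and 232% on the ME arrays, against 324% and 318% on the AX arrays (-0.45, SE 0.0399). Kdr, the VEGF receptor of capillaries, was higher in ME by its brighter probe, with 1340.5% and 1331% on the ME arrays, against 1201% and 1156% on the AX arrays (0.18, SE 0.0409), whereas its other probe gave -0.07. Ocln, a tight junction gene, differed by -0.21 (SE 0.0401), and Pecam1, an adhesion molecule of all endothelium, by -0.14 (SE 0.0480). How much of the plexus, meninges and vessel wall each dissection held was not tested.

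**Figure D3:**
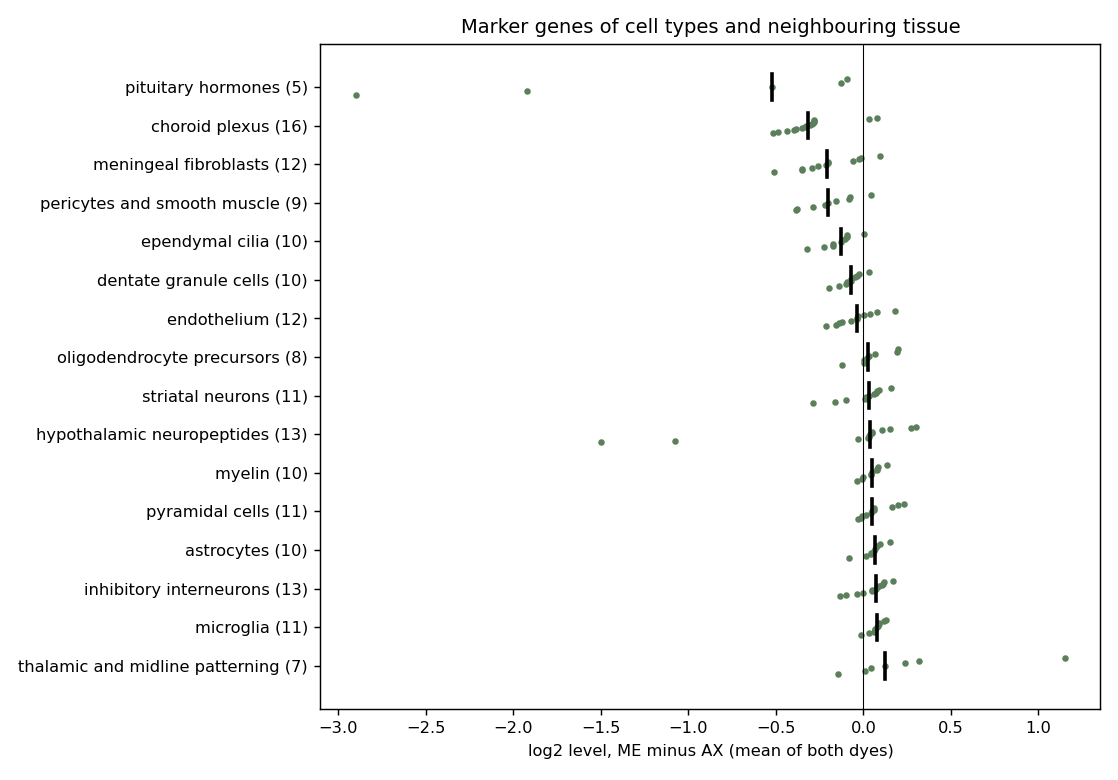
Difference in log2 level between ME and AX (mean of both dyes) for each tested marker gene. Genes are grouped by cell type or other tissue with the number tested in brackets, and the median is a bar. The medians run from -0.52 for pituitary hormones and -0.32 for choroid plexus to 0.08 for microglia and 0.13 for patterning genes, which hold Prdm12.

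Most genes of antigen presentation by MHC class II, and some single genes of inflammation, were lower in ME. MHC class II molecules show peptides to T cells and are made by border macrophages, dendritic cells and activated microglia. The list of 11 class II genes was put together after the values were seen. Of 9 that could be tested, 6 were lower in both dyes (27.4% of all genes tested) and 3 higher (39.7%), with a median of -0.41. Cd74, the invariant chain that guides class II molecules to the endosome, had 31.8% and 29.4% on the ME arrays, against 51.2% and 43.8% on the AX arrays (-0.63, SE 0.0611). H2-Aa had 5.01% and 5.04% against 8.06% and 7.86% (-0.66, SE 0.0957), and H2-Ab1 had 58.4% and 59.9% against 81.4% and 94.1% (-0.56, SE 0.0645), the second of its probes giving -0.60 in Cy3 and -0.65 in Cy5. H2-Eb1 differed by -0.41 (SE 0.0477), and Ciita, the coactivator of these promoters, by -0.64 (SE 0.148) at levels of only 2.27% and 2.06% on the ME arrays, against 3.25% and 3.50% on the AX arrays. Ciita was well above background on 1 ME array and entered the test through the AX arrays alone, which can set its direction. The other 4 genes were well above background on all 4 arrays. H2-Ob, a chain of the inhibitor that blocks peptide loading in B cells, was the exception of size, with 24.5% and 23.5% on the ME arrays, against 16.8% and 19.4% on the AX arrays (0.41, SE 0.0927). The AX+ME arrays lay near AX for Cd74 (47.0% and 45.5%) and H2-Eb1 (78.6% and 73.7%).

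Lcn2, which binds bacterial iron carriers and is made in inflamed brain, had 36.5% and 38.9% on the ME arrays, against 63.1% and 64.7% on the AX arrays (-0.76, SE 0.0422). Lrg1, a vessel glycoprotein of the acute phase, had 22.7% and 25.7% on the ME arrays, against 43.5% and 44.2% on the AX arrays (-0.86, SE 0.0561). Both were among the 10 smallest unadjusted p-values, and both stood between the groups on the AX+ME arrays, at 43.1% and 44.5% and 28.2% and 29.9%. The interferon-induced chemokine gene Cxcl10 differed by -0.58 (SE 0.0653), the neutrophil alarmin gene S100a9 by -0.98 (SE 0.297) and the complement gene Cfb by -0.72 (SE 0.0717). Cfb too was well above background on 1 ME array and was tested through the AX arrays alone. Of 14 chemokines and cytokines 7 could be tested, with 3 higher and 2 lower in both dyes and a median of 0.04, and of 8 acute phase genes and metallothioneins 3 were higher and 4 lower, with a median of -0.01. Microglial identity genes did not share the direction of the class II genes: of 11 tested, 10 were higher in ME in both dyes and 0 lower, beside 39.7% of all genes, with a median of 0.08. Csf1r, the receptor that microglia need to survive, differed by 0.12 (SE 0.0434) by its brightest probe and by -0.08 by the lowest of its 3 probes, and P2ry12, their purine sensor, by 0.13 (SE 0.0499).

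**Figure D4:**
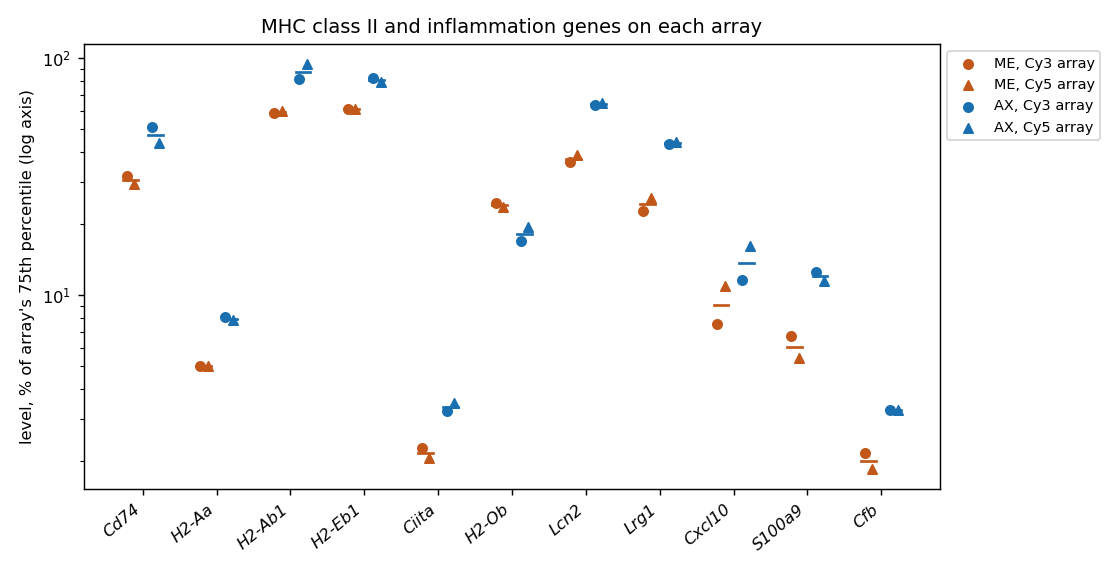
Levels of MHC class II and inflammation genes on each array as a percentage of the array's 75th percentile, on a log axis, with ME left of AX for each gene, circles for Cy3, triangles for Cy5 and bars at the geometric mean. H2-Ob is higher on both ME arrays, at 24.5% and 23.5%, than on the AX arrays, at 16.8% and 19.4%, while within each dye the other 10 genes are lower in ME.

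Fewer named genes were higher in ME by a comparable size. Lbhd2 was the one gene with a symbol and a level above the median of all genes that passed 1.5-fold in both dyes. It had 167% and 164% on the ME arrays, against 82.8% and 85.8% on the AX arrays (0.97, SE 0.0466), and the AX+ME arrays lay between them at 113% and 110.3%. Mael, which silences transposons in the germ line, had 3.94% and 3.52% on the ME arrays and was not well above background on either AX array (0.471% and 0.325%) or on the AX+ME arrays (0.343% and 0.597%). Mael entered the test through the ME arrays alone and by the same kind of approximate bound was at least 2.17-fold higher in ME. Its log2 difference was 2.90 with both AX values, which were below 0.5%, set to 0.5%, so that no spread was measured in AX. Prdm12, a transcription factor of pain-sensing neurons and of developing hypothalamic Pomc neurons, had 16.7% and 21.6% on the ME arrays, against 8.35% and 8.73% on the AX arrays (1.15, SE 0.0888). Syce3, a part of the synaptonemal complex of meiosis, had 3.36% and 2.99% on the ME arrays, against 1.60% and 1.87% on the AX arrays, 1 of them well above background. Syce3 too entered the test through the ME arrays alone.

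Zic1, a patterning factor of the dorsal neural tube and septum, had 418% and 483% on the ME arrays by its brightest probe. The AX arrays gave 332% and 392% (0.32, SE 0.0492), whereas its other kept probe gave a difference of only 0.04. Of 12 genes of thalamic and midline patterning 7 were tested. In both dyes 5 were higher (39.7% of all genes tested) and 1 lower (27.4%). The X-linked Xlr family holds near-identical copies that probes may not tell apart. Of 10 Xlr genes in a list made after the values were seen, 4 were tested, of which 2 were higher in ME in both dyes and 2 went opposite ways, with differences down to -0.50. Xlr3b had 90.0% and 90.0% on the ME arrays, against 56.5% and 60.9% on the AX arrays (0.62, SE 0.0486), and Xlr4a differed by 0.48 (SE 0.0458). A second probe of each gave the same direction in both dyes. Ecel1, a neuronal peptidase, differed by 0.59 (SE 0.0919), and Dlk1, an imprinted Notch-ligand-like protein, by 0.43 (SE 0.0506). Tex22 was a bright gene running the other way, with 117% and 123% on the ME arrays, against 176% and 181% on the AX arrays (-0.57, SE 0.0454).

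**Figure D5:**
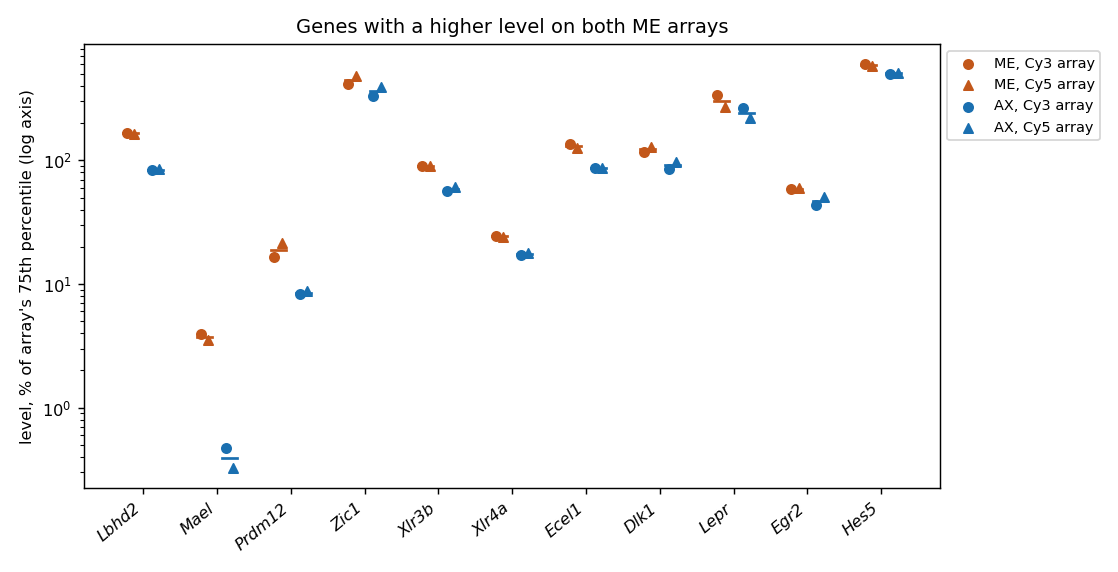
Levels of genes that were higher in ME in both dyes, as a percentage of the array's 75th percentile on a log axis, with ME left of AX for each gene, circles for Cy3, triangles for Cy5 and bars at the geometric mean. Mael on the AX arrays, at 0.471% and 0.325%, is below background, and Lepr and Zic1 are each drawn from the brightest of their probes.

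The series title names leptin, a hormone that acts through its receptor and the kinase Jak2 on the factor Stat3. Lep itself was at background, with 1.55% and 1.84% on the ME arrays, against 1.64% and 1.70% on the AX arrays, and well above background on none of the 4, so no difference in leptin transcript was detectable. Lepr, the receptor, had 339% and 268% on the ME arrays, against 264% and 220.3% on the AX arrays by its brightest probe (0.32, SE 0.0476). Its other kept probes, at levels of only 3.33% to 6.39%, gave -0.17 in Cy3 and -0.74 in Cy5 for the second, and 0.22 and -0.16 for the third, so that the probes disagree. Leprot, which shares its promoter with Lepr and controls the receptor at the cell surface, differed by 0.13 (SE 0.0404). Of 14 genes of leptin signalling 13 were tested, with a median of 0.01. In both dyes 5 were higher (39.7% of all genes tested) and 1 lower (27.4%).

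Lists tied to neurogenesis had medians near that of all genes. Of all genes tested, 39.7% were higher in ME in both dyes and 27.4% lower. The median was 0.01 over 13 genes of neural stem and progenitor cells (5 higher, 4 lower in both dyes), 0.01 over 10 genes of immature neurons (5 higher, 1 lower) and 0.03 over 11 proliferation genes (5 higher, 2 lower). Hes5, a Notch target that keeps stem cells undifferentiated, had 600.0% and 579% on the ME arrays, against 504% and 514% on the AX arrays (0.21, SE 0.0443). Notch1, the receptor, ran the other way, with 27.7% and 30.7% on the ME arrays, against 42.0% and 39.4% on the AX arrays (-0.48, SE 0.104). Eomes, a factor of intermediate progenitors, differed by 0.50 (SE 0.156) at dim levels of 3.92% and 3.50% on the ME arrays, against 2.77% and 2.48% on the AX arrays. It was well above background on 1 AX array, so it was tested through the ME arrays alone, which can set its direction. Igfbpl1, a gene of newborn neurons, differed by 0.17 (SE 0.0404). Among growth factors, the insulin-like growth factor list had a median of -0.10 (3 higher, 6 lower of 11), with Igfbp2 at -0.26 (SE 0.0679) and Igfbp5 at -0.20 (SE 0.0409). The 9 neurotrophin genes tested had a median of 0.04, with Bdnf at 0.16 in Cy3 and 0.06 in Cy5 and Ntf5 at -0.21 and -0.47.

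Early response genes, which neurons switch on within minutes of activity, had a median of 0.07: 11 of 21 were higher in both dyes, where 39.7% of all genes tested were, and 4 lower. Egr2 had 58.2% and 59.4% on the ME arrays, against 43.7% and 50.8% on the AX arrays (0.32, SE 0.0712). Arc, a regulator of synaptic strength, differed by 0.17 (SE 0.0421), Dusp1, a phosphatase that ends kinase signals, by 0.20 (SE 0.0580) and Egr1 by 0.12 (SE 0.0407). The heat shock co-chaperone gene Dnajb1 differed by 0.20 (SE 0.0412), with 8 of 11 heat shock genes higher in both dyes, where 39.7% of all genes tested were, and 0 lower. Of these 11, 3 were saturated on 1 or more of the 4 arrays. The heat shock list's median was 0.06, and it lay between -0.01 and 0.12 over 11 other settings. Cpne4, a calcium-dependent membrane-binding protein, differed by 0.23 (SE 0.0432) by its brightest probe, and its 3 probes gave between 0.03 and 0.31. Dsp, a desmosome gene that marks dentate granule cells, differed by -0.20 (SE 0.0446). The 10 dentate genes had a median of -0.07 (0 higher, 6 lower in both dyes), and the 11 pyramidal genes one of 0.05 (8 higher, 1 lower). Of all genes tested, 39.7% were higher and 27.4% lower in both dyes.

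Lists of antioxidant genes had medians slightly above that of all genes. Of 16 antioxidant enzymes 11 were higher in ME in both dyes and 2 lower, with a median of 0.07. Of all genes tested, 39.7% were higher and 27.4% lower. Among 13 targets of Nrf2, the factor that induces antioxidant genes, 7 were higher and 2 lower, with a median of 0.04. The bright genes Sod2, mitochondrial superoxide dismutase, Txn1, thioredoxin, and Gpx1, glutathione peroxidase, differed by 0.10 (SE 0.0403), 0.14 (SE 0.0484) and 0.10 (SE 0.0433). Cat, catalase, was lower by its brightest probe (-0.35 and -0.08), whereas its second probe gave -0.0036 and 0.13. Gsta4, a Nrf2 target, differed by 0.13 (SE 0.0451). Of 9 tested genes that handle carotenoids and lipoproteins 3 were higher and 2 lower, with a median of -0.04, and Bco2, the enzyme that cleaves carotenoids such as astaxanthin's relatives, differed by 0.17 (SE 0.0511). Stra6, the receptor that takes up retinol, had 82.3% and 99.8% on the ME arrays, against 111% and 121% on the AX arrays (-0.35, SE 0.0799). Respiratory chain genes had a median of 0.08, with 9 of 14 higher in both dyes and 2 lower. Probes were saturated on 1 or more of the 4 arrays for 8 of these 14 genes and for 4 of the 16 antioxidant enzymes, so their signs are uncertain. Over 11 other settings, the medians of the antioxidant, Nrf2 and respiratory chain lists stayed between 0.00 and 0.14.

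Lists of other cell types of the hippocampus had medians of 0.03 to 0.07, as large as those of the antioxidant lists, beside the 0.02 of all genes. The medians were 0.07 for 10 astrocyte genes, 0.05 for 10 myelin genes, 0.03 for 8 genes of oligodendrocyte precursors and 0.07 for 13 genes of inhibitory interneurons. Of the 13 interneuron genes, 4 were saturated on 1 or more of the 4 arrays. Gpr17, a receptor of differentiating precursors, differed by 0.20 (SE 0.0431). The 11 striatal genes had a median of 0.03, although Adora2a, the adenosine receptor of striatal neurons, was lower in ME, with 15.6% and 14.0% on the ME arrays, against 18.3% and 17.9% on the AX arrays (-0.29, SE 0.0543). The 6 red cell genes tested had a median of 0.00. Among the remaining lists the medians were 0.05 for VEGF and FGF factors, -0.01 for glutamate receptors, 0.01 for plasticity kinases and scaffolds, 0.04 for retinoid genes, 0.04 for energy sensors, 0.05 for lactate and glucose transport, 0.03 for glucocorticoid targets, 0.02 for clock genes and 0.04 for the unfolded protein response. Six2, a homeobox factor, was among the 10 genes with the smallest unadjusted p, at dim levels of 3.22% and 3.44% on the ME arrays, against 5.07% and 5.91% on the AX arrays (-0.72, SE 0.0538).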

How the data were processed

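Total RNA from hippocampus was labelled with Cy3 or Cy5 and hybridised to Agilent 8x60K arrays, 1 sample per array. Per the submitters' processing notes, spots were read with Agilent Feature Extraction 11.0.1.1. Per the file headers, the deposited processed signal is an intensity on a linear scale, with background subtraction and detrending inside each array, and the probe design refers to mouse build mm9. The deposited series-wide table held the same intensities rounded, within 0.5. Control and non-uniform spots were left out and saturated spots kept. Spots of a probe were averaged (55681 probes, 26582 with a symbol by accession), divided by the array's 75th percentile, set to at least 0.5% of it and log2-transformed. Probes were kept when well above background on both arrays of ME or of AX (35348 probes), and the brightest probe stood for a gene. "At least N-fold" sets the brighter group's mean against, per dim array, the higher of the probe's own signal and the lowest one of any probe well above background. That lowest signal may lie under the limit of a given probe, so the bound is approximate.

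limma 3.58.1 in R 4.3.3 fitted ME, AX and AX+ME (6 arrays) with terms for group and dye, with Benjamini-Hochberg adjustment, 2 residual and 1.69 prior degrees of freedom. Dye is the replicate number, so it is the block, and each number marks a shared dye. The code was checked on simulated data. Genes were named by rank of the smaller within-dye difference past 1.5-fold (8 bright and 5 dim each way, where there were so many), by up to 4 members of each of 40 lists, by the 10 smallest p-values, plus Lep, Lepr, Prl, Gh, Trh and Bdnf; unnamed transcripts were passed over. Members, lists and rules were chosen with earlier results of these data known. Chosen after their values were seen were the MHC class II and Xlr lists and Col1a1, Vwf, Pln, Egr1, S100a9, Cfb, Cd74, Ciita, the H2 and Xlr genes, Ecel1, Dlk1, Tex22, Cat, Crh, Dcn, Rgs5, Pecam1 and the plexus genes Kl, Cldn2, Steap1, Kcnj13, Kcne2, Folr1, Otx2 and Prlr. Alternatives were other scalings, normalizations, filters, probes, folds and sample sets. The number of arrays limits the precision.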

Additional observations from a re-analysis of the deposited data

Results flagged for a closer look

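Each array was hybridised with a sample in 1 dye, and the other channel was scanned as well. In that unlabelled channel 707 spots on the ME Cy3 array and 573 on the ME Cy5 array were well above background, against 660 on the AX Cy3 array and 546 on the AX Cy5 array, above the 3 that a count of 0 allows. The median signal of these spots was 20.2 and 12.1 on the ME arrays, against 19.2 and 12.6 on the AX arrays, in scanner units. In the labelled channel 75.8% of them were saturated on the ME Cy3 array and 52.9% on the ME Cy5 array, against 83.8% on the AX Cy3 array and 36.3% on the AX Cy5 array, where 1.79%, 2.49%, 1.85% and 2.39% of all spots were saturated in the same order of arrays. No value of the unlabelled channel entered a comparison.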

How the results depend on the processing

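The count of genes called by limma was 0 over the leave-one-out fits (lowest 0, highest 0, with a lone sample assumed to vary like the other groups), over the fit of 4 arrays (3033 genes at an unadjusted p under 0.05), over that of all 8 arrays (1908) and over the other settings, except for 1 gene each under 2 settings. Without the replicate block, that is without the dye term, limma called 1 gene, Mael (log2 difference 2.90, adjusted p = 0.0357, with both AX values set to the floor). With normexp background correction on the median signals limma called 1 gene, Prl (-1.35, adjusted p = 0.0394), and 4 genes passed 1.5-fold upward in both dyes, 11 downward and 1 in opposite ways. This setting was chosen after seeing the data, because the planned version needs mean signals, which were not used here. The counts higher, lower and opposite were 4, 21 and 6 for probes well above background on all 4 arrays, 94, 250 and 294 with no filter, 28, 128 and 44 for every probe on its own, 123, 464 and 177 with the threshold at 125% of the other group's level, and 3, 19 and 1 at 2-fold. After quantile normalization 31 were higher, 51 lower and 35 opposite, and from array column 70 on 10 were higher, 52 lower and 16 opposite. Fewer or more probes tested set these counts by construction in the filter and probe settings, and the cause was not tested for quantile normalization and normexp. Lepr was -0.45 from column 70 on and -0.032 as the mean over its probes, and Cat was 0.064 from column 70 on, each through its other probes. Of 1791 values of named genes 1786 kept their direction and side of the threshold, and of 462 list medians 293 moved by less than the spread between dyes. The counts in both dyes need 4 arrays and could not be given with an array left out. Signals near background limit Prl, Gh, Avp and Mael.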

Other observations

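AI429214, a transcript chosen after its values were seen, stood at 9.58% and 976% on the ME arrays, against 6.38% and 6.32% on the AX arrays (Cy3 and Cy5), so that 1 array of 4 was high. A second probe of Wfdc16 gave 22.2% on the AX Cy5 array alone, where the ME arrays gave 1.08% and a value below 0 and the AX Cy3 array gave 0.505%.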
